A study of Mus musculus with 9 samples.

Results

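The endothelial cell genes described here are 34 genes whose symbols were given as a list, and each was taken where the gene symbol of the deposited tables equalled a name on that list. All 34 were found among the 55536 genes of the tables, and all 34 passed the filter on low counts, as part of 14384 genes tested. Matching by symbol used no measured value, but the list itself was chosen with earlier results of these data known. Shares of members given below are therefore descriptions, without a list-wide test. By role they are 8 junction and adhesion genes, 11 receptors and receptor partners, 7 transcription factors, 3 secreted or matrix proteins and 5 enzymes and intracellular regulators. All 34 are annotated as protein coding.

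The RNA came from muscle of male ICR mice, an outbred stock, and the labels name no particular muscle. Aged GW8510 mice were 18 months old and had received GW8510 at 2 mg/kg, dissolved in a carboxymethylcellulose solution, by intraperitoneal injection on each of 14 days (libraries 1, 3 and 4). GW8510 is a small molecule that the series title connects with p21-activated kinases. Aged vehicle mice were 18 months old (libraries 1, 3 and 4), and young vehicle mice were 2 months old (libraries 2, 3 and 4). No genotype or transgene is given for any group. The labels do not state that the 3 libraries of a group came from separate animals, so p-values measure the spread between samples, which may be technical. In whole tissue, fewer endothelial cells and less endothelial RNA per cell cannot be told apart.

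Endothelial cells line every blood vessel, and in muscle most of them form the capillaries that run beside the fibres. ETS-family factors such as Erg and Fli1 and the SOXF factors Sox7, Sox17 and Sox18 set the endothelial programme, cadherin and claudin junctions hold the cells together, and the receptors for VEGF, angiopoietins and BMP ligands govern growth, survival and quiescence of the vessel. Endothelial cells also sense blood flow and release nitric oxide, made by the synthase that Nos3 encodes.

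Library totals ran from 21718930 to 27437937 expected counts, at which 3 counts correspond to 0.109 to 0.138 CPM (counts scaled for library depth with TMM factors), and each member lay above that level in every library. The muscle label was checked with 12 muscle fibre genes, which summed to 121216 to 188481 CPM. Aged vehicle library 4 stood apart. It held the lowest level of all 14 fibroblast markers, of 12 of 14 smooth muscle and pericyte markers and of 18 of the 34 endothelial members, and its 12 leukocyte markers summed to 38.5 CPM, while the remaining 8 libraries had 2.33 to 9.62 CPM. The highest level of 22 of the 34 members was in aged GW8510 library 3. Values without aged GW8510 library 3 or aged vehicle library 4 are given beside several of the results.

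Compared per length, by mean deposited TPM (scaled for gene length and depth) over the 9 libraries, Rgcc was the most abundant member at 88.6 TPM. Rgcc encodes a regulator of the cell cycle. Egfl7, a secreted vessel protein, followed at 52.5 TPM, then Ramp2, the partner of the adrenomedullin receptor, at 27.4, the adhesion molecule gene Pecam1 at 25.5 and Cdh5, which encodes VE-cadherin, at 21.1 TPM. The least abundant were the VEGF-C receptor gene Flt4 at 1.17, the hyaluronan receptor gene Lyve1 at 1.14 and the helix-loop-helix factor gene Tal1 at 0.609 TPM. Flt4 and Lyve1 also mark lymphatic endothelium, and Lyve1 also marks some macrophages. The sum of the 34 members was 750.0, 1199 and 907 CPM in aged GW8510 libraries 1, 3 and 4, 635, 837 and 652 CPM in aged vehicle libraries 1, 3 and 4, and 984, 868 and 786 CPM in young vehicle libraries 2, 3 and 4. The groups overlapped in this sum.

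The promoters of 3 members are shown because, for these genes, both aged groups lay on the same side of the young libraries without overlap and the RefSeq window reaches outside the exons. The letters are the RefSeq bases upstream of the annotated start, 5′ to 3′ on the gene's strand, build GRCm38.p6. Cldn5 is on the plus strand (chr16:18776597-18776846), Gja4 on the minus strand (chr4:127314040-127314289) and Rgcc on the minus strand (chr14:79301646-79301885). Capitals mark the ETS motif AGGAAGT or CGGAAGT on either strand.
Cldn5: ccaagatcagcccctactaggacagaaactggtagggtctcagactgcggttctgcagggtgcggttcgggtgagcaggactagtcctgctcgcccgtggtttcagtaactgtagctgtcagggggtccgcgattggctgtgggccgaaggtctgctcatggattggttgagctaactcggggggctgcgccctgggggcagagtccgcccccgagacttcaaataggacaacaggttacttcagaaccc
Gja4: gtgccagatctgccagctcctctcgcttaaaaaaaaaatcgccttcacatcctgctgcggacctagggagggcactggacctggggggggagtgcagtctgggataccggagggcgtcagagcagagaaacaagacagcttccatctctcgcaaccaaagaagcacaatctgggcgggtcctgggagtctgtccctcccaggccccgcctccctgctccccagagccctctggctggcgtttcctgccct
Rgcc: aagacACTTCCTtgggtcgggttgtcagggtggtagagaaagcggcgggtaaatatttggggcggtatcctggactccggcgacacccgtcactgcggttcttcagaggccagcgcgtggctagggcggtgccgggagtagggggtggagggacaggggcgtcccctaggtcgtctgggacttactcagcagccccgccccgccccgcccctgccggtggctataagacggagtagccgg

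RefSeq promoter windows, which run 250 bases before to 50 bases after a start, were found for 17 of the 34 members, in 22 windows. The ETS motif was in 22.7% of the member windows (Egfl7, Eng, Flt1 and Rgcc), against 15.1% of all 32851 windows. The GATA motif AGATAAG was in 9.09% of member windows (Erg and Tek), against 3.04% of all. The SOX motifs ACAATGG and ACAAAGG were in 4.55% (Egfl7), against 9.28%, as were the KLF motif CCACACC (Tie1), against 7.58%, and the CRE core motif TGACGT (Flt1), against 7.51%. The AP-1 motif TGACTCA and the CArG box had no match in a member window, and 5.2% and 1.63% of all windows held them. Both strands were searched. With 22 windows these shares are a description.

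Age was addressed by aged vehicle against young vehicle muscle. Rgcc rose and Apold1, an early response gene of endothelium, fell, and the other 32 members did not pass the test (edgeR quasi-likelihood, Benjamini-Hochberg adjusted p under 0.05). Of all genes tested, 1.22% passed, 0.521% higher and 0.695% lower. The log2 fold change was below 0 for 29 of 34 members and above 0 for 5, against 48.8% and 51.2% of all genes tested, and the median was -0.41, against 0.01 over all genes. The libraries of both groups did not overlap for 11 members, 2 higher in aged vehicle (Rgcc and Gja4) and 9 lower, against 12.7% and 13.5% of all genes. At an unadjusted p under 0.05, 8 members were lower and 1 was higher, against 10.1% and 9.07% of all genes. Leaving out young vehicle library 2 gave a median of -0.27, leaving out aged vehicle library 4 one of -0.30, and leaving out aged vehicle library 3 one of -0.63. Without aged vehicle library 3, 15 members were lower at an unadjusted p under 0.05, and 5 were when aged vehicle library 1, aged vehicle library 4 or young vehicle library 3 was left out. Smooth muscle and pericyte markers had 12 of 14 log2 fold changes below 0 in this comparison, with a median of -0.40. All 14 fibroblast markers (median -1.58) and all 12 macrophage markers tested (median -0.80) were below 0 as well, and the part of these cells in the members' values was not tested.

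**Figure D1:**
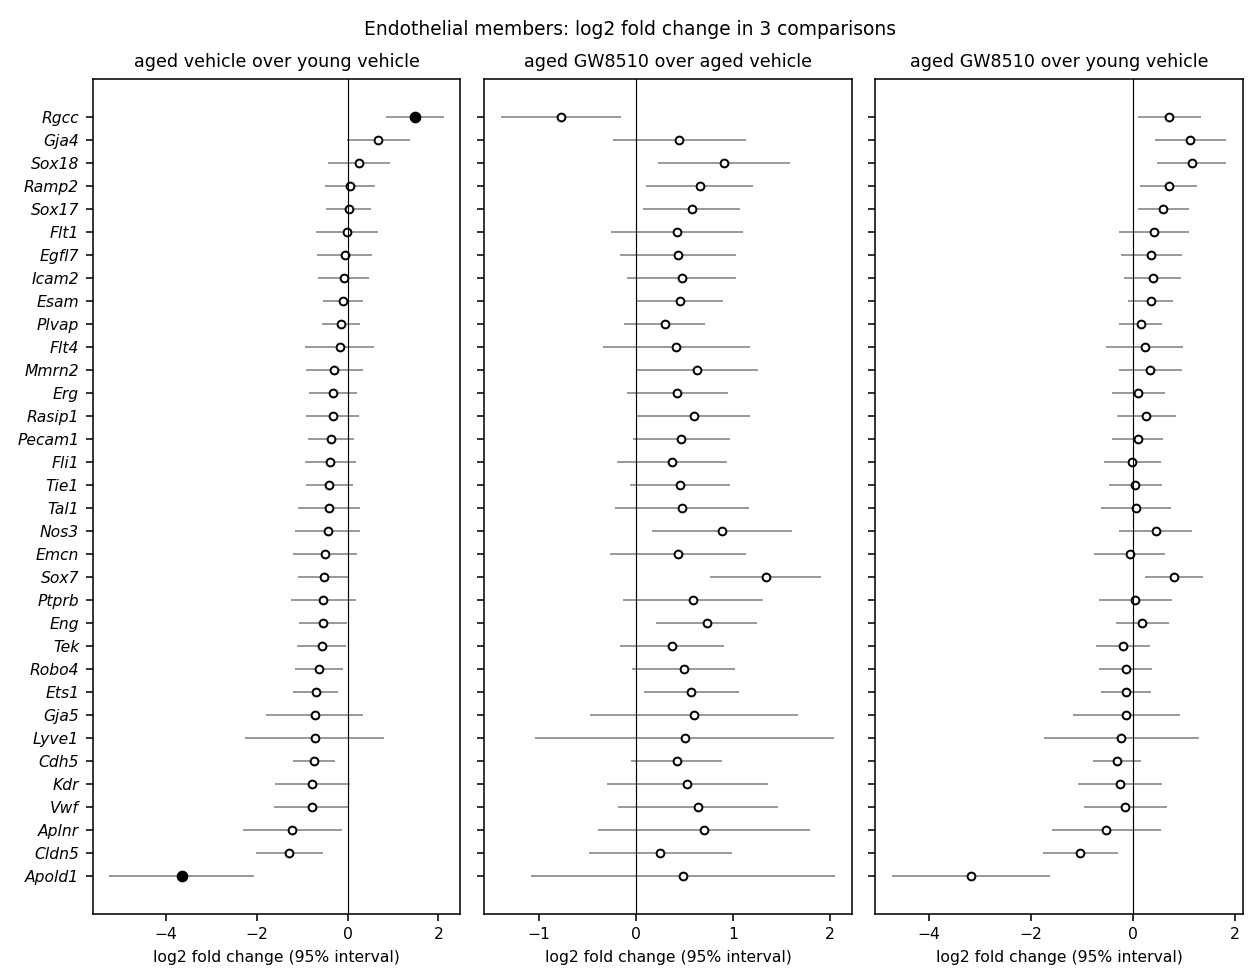
Log2 fold change of the 34 members (points) with 95% interval (lines) in the 3 comparisons, ordered by the age comparison. Filled points passed an adjusted p under 0.05: Rgcc and Apold1 with age, and none with GW8510, where 33 of 34 members lay above 0.

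Rgcc (ENSMUSG00000022018, chromosome 14 from 79288756 to 79301645, minus strand) measured 51.9, 53.4 and 46.0 CPM in the aged GW8510 libraries, 58.4, 69.5 and 130.3 CPM in the aged vehicle libraries and 33.3, 34.4 and 24.5 CPM in the young vehicle libraries, in the order of the library numbers. All aged vehicle values lay above all young values, and the highest, in library 4, was far above the others. Relative to the mean of the other members (log2 scale, centred per gene), Rgcc stood at 0.68, 0.47 and 1.93 in the aged vehicle libraries. The mean centred level of all members in aged vehicle library 4 was low, at -0.49, so Rgcc ran against the other members there. Which cells the Rgcc RNA came from was not tested. Rgcc rose 2.80-fold with age, a log2 fold change of 1.49 (SE 0.28, edgeR adjusted p = 0.0416). Without aged vehicle library 4 the log2 fold change was 1.06 (edgeR adjusted p = 0.0279). Rgcc passed in 3 of the 9 fits that left out 1 library, those without an aged vehicle library, and over all 9 fits the adjusted p ran from 0.0279 to 0.129. Among the other enzymes and regulators the log2 fold changes were negative. Nos3 had a log2 fold change of -0.44, Plvap, which forms the diaphragms of fenestrae, -0.15, and Rasip1, a regulator of vessel lumen formation, -0.33, and none passed.

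Apold1 (ENSMUSG00000090698, chromosome 6 from 134981718 to 134986836, plus strand) measured 0.544, 3.01 and 2.05 CPM in the aged GW8510 libraries, 0.582, 1.72 and 1.73 CPM in the aged vehicle libraries and 32.1, 10.2 and 8.30 CPM in the young vehicle libraries. Every aged library, treated or not, lay below every young library, and young vehicle library 2 was far above the other young libraries. The mean of Apold1 was 1.34 ± 0.659 CPM in aged vehicle muscle, against 16.9 ± 13.2 CPM in young vehicle muscle (SD, n = 3 each). The fall was 12.6-fold, a log2 fold change of -3.66 (SE 0.71, edgeR adjusted p = 0.0456). With young vehicle library 2 left out it was -2.81 (edgeR adjusted p = 0.126). Of the 9 fits that left out 1 library, Apold1 passed in 1, that without aged GW8510 library 1. The 23 immediate-early and shear-responsive genes tested, which like Apold1 respond quickly to stimuli, included 9 that fell with age. Among them the flow-responsive factor gene Klf2 had 20.7 ± 1.63 CPM in aged vehicle muscle, against 66.7 ± 18.4 CPM in young vehicle muscle (SD, n = 3 each, edgeR adjusted p = 0.0264).

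Among the junction and adhesion genes none passed with age, and 7 of 8 had a log2 fold change below 0. Cldn5 (ENSMUSG00000041378, chromosome 16 from 18776847 to 18778262, plus strand), which encodes the endothelial tight junction claudin, measured 5.58, 12.0 and 9.48 CPM in the aged GW8510 libraries, 6.51, 6.01 and 10.2 CPM in the aged vehicle libraries and 24.9, 16.7 and 13.6 CPM in the young vehicle libraries. The young values were all above the values of both aged groups. Aged vehicle over young vehicle gave a log2 fold change of -1.28 (SE 0.33, edgeR adjusted p = 0.0911), which did not pass. Cdh5 (ENSMUSG00000031871, chromosome 8 from 104101625 to 104144511, plus strand), the adherens junction cadherin, measured 60.5, 94.6 and 74.6 CPM in the aged GW8510 libraries, 58.5, 69.3 and 43.4 CPM in the aged vehicle libraries and 92.6, 103 and 89.9 CPM in the young vehicle libraries. The aged vehicle values lay below the young ones, with a log2 fold change of -0.74 (SE 0.21, edgeR adjusted p = 0.118). An antisense gene overlaps Cdh5, and whether counting used strand is not given in the sources used here.

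Gja4 (ENSMUSG00000050234, chromosome 4 from 127311421 to 127314039, minus strand) encodes an arterial connexin of gap junctions. It measured 5.08, 10.4 and 7.83 CPM in the aged GW8510 libraries, 5.49, 7.72 and 3.85 CPM in the aged vehicle libraries and 3.62, 3.76 and 3.31 CPM in the young vehicle libraries. Every aged value, treated or not, lay above every young value. The gap was narrow, as aged vehicle library 4 (3.85 CPM) and young vehicle library 3 (3.76 CPM) each held 89 counts. Aged vehicle over young vehicle gave a log2 fold change of 0.67 (SE 0.31, edgeR adjusted p = 0.275), which did not pass. Its relative Gja5, also an arterial connexin, measured 2.54, 6.73 and 5.74 CPM in the aged GW8510 libraries, 3.96, 4.66 and 1.25 CPM in the aged vehicle libraries and 6.70, 5.62 and 4.05 CPM in the young vehicle libraries, with a log2 fold change of -0.73 (SE 0.48, edgeR adjusted p = 0.424), or -0.34 without aged vehicle library 4. Pecam1, Esam, Icam2 and Emcn, the remaining adhesion and surface genes, had log2 fold changes from -0.50 to -0.09.

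Of the 11 receptors and partners none passed with age, and 10 lay below 0 on the log2 fold change scale. Aplnr (ENSMUSG00000044338, chromosome 2 from 85136225 to 85139923, plus strand), the apelin receptor gene, measured 6.76, 5.18 and 5.07 CPM in the aged GW8510 libraries, 1.78, 5.43 and 3.25 CPM in the aged vehicle libraries and 3.18, 9.68 and 11.6 CPM in the young vehicle libraries. The groups overlapped through young vehicle library 2, and the comparison gave a log2 fold change of -1.23 (SE 0.49, edgeR adjusted p = 0.219). Robo4 (ENSMUSG00000032125, chromosome 9 from 37401897 to 37415115, plus strand), a roundabout receptor that stabilises vessels, measured 10.8, 19.1 and 15.2 CPM in the aged GW8510 libraries, 12.3, 12.0 and 7.70 CPM in the aged vehicle libraries and 17.0, 17.2 and 15.7 CPM in the young vehicle libraries. All aged vehicle values were below the young ones, with a log2 fold change of -0.64 (SE 0.24, edgeR adjusted p = 0.196). Tek (ENSMUSG00000006386, chromosome 4 from 94739289 to 94874976, plus strand), the angiopoietin receptor gene, measured 17.2, 28.7 and 25.5 CPM in the aged GW8510 libraries, 19.2, 19.9 and 15.9 CPM in the aged vehicle libraries and 36.2, 23.1 and 22.5 CPM in the young vehicle libraries. Aged vehicle lay below young vehicle without overlap, with a log2 fold change of -0.57 (SE 0.24, edgeR adjusted p = 0.236). Its relative Tie1 had a log2 fold change of -0.41, and Ptprb, the phosphatase that restrains the Tek receptor, -0.54.

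The VEGF receptor genes spanned a range. Kdr, the main signalling receptor for VEGF-A, measured 36.2, 74.6 and 62.7 CPM in the aged GW8510 libraries, 44.2, 56.0 and 19.7 CPM in the aged vehicle libraries and 84.7, 62.9 and 58.1 CPM in the young vehicle libraries, and its age difference gave a log2 fold change of -0.78 (SE 0.37, edgeR adjusted p = 0.289). Aged vehicle library 4 was the lowest, and without it the value for Kdr was -0.45. Flt1, which also binds VEGF-A, had a log2 fold change of -0.01 with a 95% interval of -0.70 to 0.67, and Flt4 -0.18. Eng (ENSMUSG00000026814, chromosome 2 from 32646595 to 32682669, plus strand), the co-receptor for BMP ligands, gave a log2 fold change of -0.54 (SE 0.23, edgeR adjusted p = 0.247) with no overlap between groups, and -0.39 without aged vehicle library 4. Its per-library values are given with the treatment comparison. Ramp2 stood at 0.04 and Lyve1 at -0.73 with an interval of -2.26 to 0.80. Kdr, Flt1, Ramp2, Ptprb, Tie1, Gja5, Nos3 and other genes outside the fixed naming rule were singled out after their values were seen.

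The transcription factor genes gave no call with age. Ets1 (ENSMUSG00000032035, chromosome 9 from 32636221 to 32757820, plus strand), an ETS factor also expressed in lymphocytes, measured 11.2, 19.0 and 17.6 CPM in the aged GW8510 libraries, 10.7, 12.6 and 8.87 CPM in the aged vehicle libraries and 19.9, 15.4 and 17.2 CPM in the young vehicle libraries. The aged vehicle values were below the young ones, with a log2 fold change of -0.71 (SE 0.22, edgeR adjusted p = 0.142). Erg, Fli1 and Tal1, which mark endothelial and blood lineages, had log2 fold changes of -0.32, -0.38 and -0.42. Among the SOXF factors Sox7 stood at -0.53, Sox17 at 0.02 and Sox18 at 0.25, and the Sox18 value was -0.01 without young vehicle library 2. The secreted and matrix genes Vwf, Mmrn2 and Egfl7 had values of -0.79, -0.29 and -0.07. Vwf encodes von Willebrand factor, which platelets also contain.

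**Figure D2:**
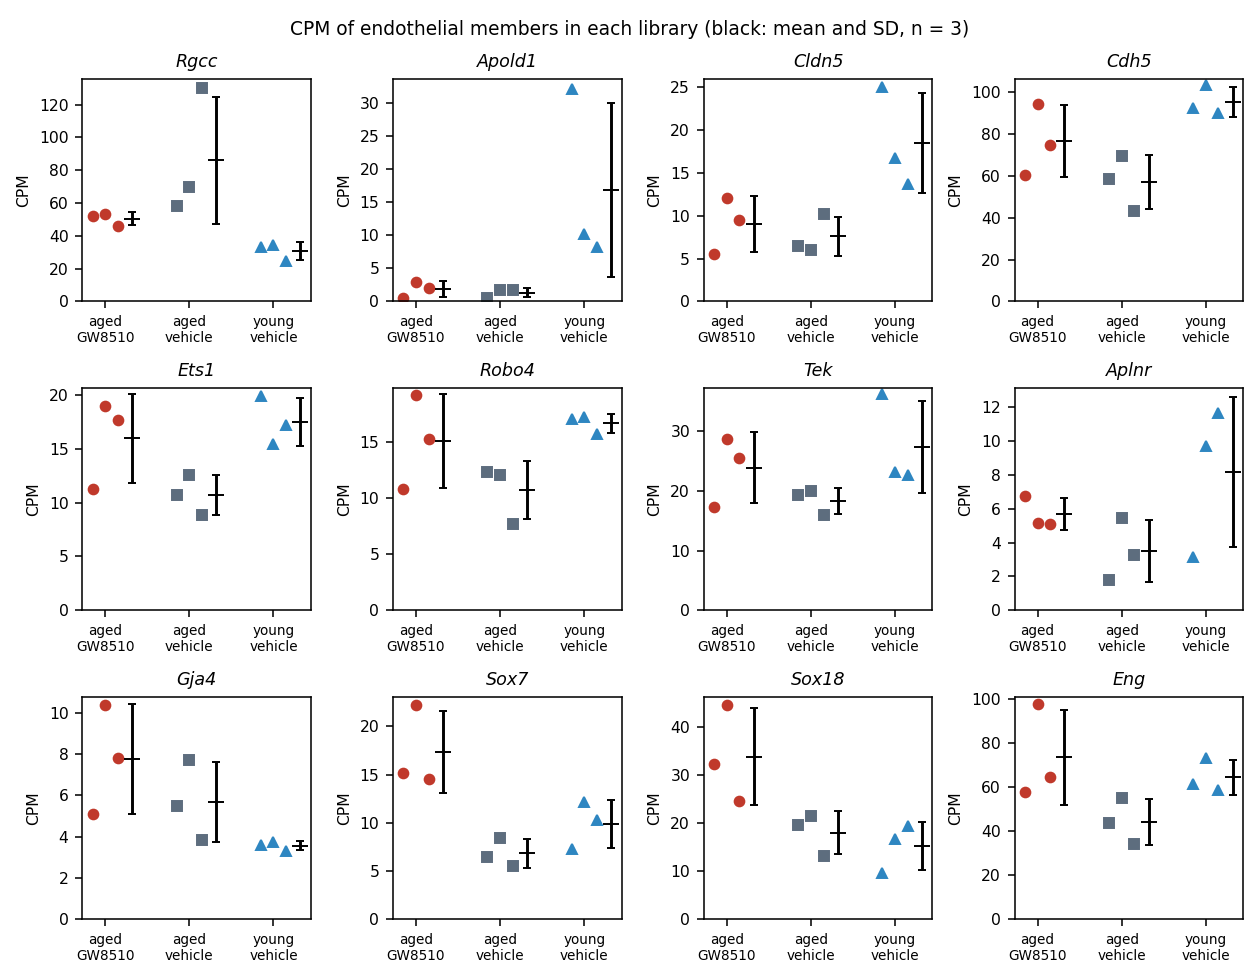
CPM of 12 members in each library (aged GW8510 red circles, aged vehicle grey squares, young vehicle blue triangles), with mean and SD in black (n = 3). Apold1 and Cldn5 are lower in every aged library than in every young library. Gja4 lies above young in every aged library, but in aged vehicle library 4 only narrowly (3.85 CPM, against 3.76 CPM in young vehicle library 3). Sox7 is high in the GW8510 libraries, at 14.5 to 22.2 CPM.

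Treatment was addressed by aged GW8510 against aged vehicle muscle. No member passed, and no gene of the 14384 tested did (0% called, smallest edgeR adjusted p over all genes 0.791). An unadjusted p under 0.05 was reached by 646 genes, 4.49%, and DESeq2 called 11 genes, limma-voom 0 and edgeR without a filter on low counts 5. The log2 fold change was above 0 for 33 of 34 members, against 50.9% of all genes, and below 0 for 1, Rgcc, against 49.1%. The median was 0.48, against 0.01 over all genes. By the same unadjusted threshold 10 members were higher and 1 was lower, against 2.7% and 1.79% of all genes. For 4 members the libraries of the groups did not overlap, against 7.22% of all genes. They were Sox7, Sox18 and Eng on the higher side, against 3.89%, and Rgcc on the lower side, against 3.33%. Without aged GW8510 library 3 the median was 0.30, 31 members were above 0, and a single higher member, Sox7, had an unadjusted p under 0.05. Without aged vehicle library 4 the median was 0.41, and 4 higher members did (Pecam1, Eng, Sox7 and Sox18). That count was 3 with aged vehicle library 1 left out, 16 with aged vehicle library 3 left out and 18 with aged GW8510 library 1 left out.

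Sox7 (ENSMUSG00000063060, chromosome 14 from 63943673 to 63950732, plus strand), a SOXF factor of endothelial specification, measured 15.2, 22.2 and 14.5 CPM in the aged GW8510 libraries, 6.51, 8.46 and 5.54 CPM in the aged vehicle libraries and 7.24, 12.2 and 10.3 CPM in the young vehicle libraries. All 3 treated values were above all 6 others. The mean was 17.3 ± 4.25 CPM in treated muscle, against 6.83 ± 1.49 CPM in aged vehicle muscle (SD, n = 3 each), a 2.53-fold ratio with a log2 fold change of 1.34 (SE 0.26, edgeR adjusted p = 0.934). Its unadjusted p, 0.000392, was the third smallest of all 14384 genes. Sox7 passed with DESeq2 (adjusted p = 0.00895), and the authors' deposited table marks it with an adjusted p of 0.0229. Over the 9 fits without a library the log2 fold change was 1.12 to 1.52, and the edgeR adjusted p 0.374 to 1. Relative to the mean centred level of the other 33 members, Sox7 stood at 0.68, 0.56 and 0.31 in the aged GW8510 libraries, -0.21, -0.31 and -0.37 in the aged vehicle libraries and -0.79, 0.09 and 0.03 in the young vehicle libraries, on the log2 scale. The treated values did not overlap the others on that scale either.

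Sox18 (ENSMUSG00000046470, chromosome 2 from 181669836 to 181671640, minus strand), a SOXF factor of lymphatic development, measured 32.2, 44.5 and 24.6 CPM in the aged GW8510 libraries, 19.6, 21.5 and 13.1 CPM in the aged vehicle libraries and 9.57, 16.8 and 19.3 CPM in the young vehicle libraries. All treated values lay above the other 6. GW8510 over aged vehicle gave a log2 fold change of 0.91 (SE 0.31, edgeR adjusted p = 0.934), which was 0.66 with treated library 3 left out and 0.71 with aged vehicle library 4 left out. Sox17, which marks arteries, measured 13.1, 17.0 and 8.59 CPM in the aged GW8510 libraries, 8.47, 8.83 and 8.61 CPM in the aged vehicle libraries and 8.44, 8.24 and 8.85 CPM in the young vehicle libraries. Library 4 of the treated mice lay among the untreated libraries, and the comparison gave a log2 fold change of 0.58 (SE 0.22, edgeR adjusted p = 0.934), or 0.33 without treated library 3. The 7 transcription factor genes all had log2 fold changes above 0, with a median of 0.57 and a range of 0.37 to 1.34. The median was 0.33 without treated library 3 and 0.56 without aged vehicle library 4. Their mean centred level was 0.16, 0.68 and 0.12 in the aged GW8510 libraries, -0.31, -0.13 and -0.45 in the aged vehicle libraries and -0.04, -0.08 and 0.04 in the young vehicle libraries. The treated libraries did not overlap the others in this mean, which includes Sox7 and Sox18. Singly, Erg, Fli1, Ets1, Tal1 and Sox17 overlapped both untreated groups. Treated over young, Erg, Fli1, Ets1 and Tal1 had log2 fold changes of 0.11, -0.01, -0.13 and 0.06, and Sox17 one of 0.60. Tal1 and Fli1 are also expressed in blood lineages.

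Eng, with Sox7 and Sox18, had no overlap with aged vehicle. It measured 58.1, 98.0 and 64.7 CPM in the aged GW8510 libraries, 43.8, 55.0 and 34.3 CPM in the aged vehicle libraries and 61.7, 73.5 and 58.6 CPM in the young vehicle libraries. Treated library 3 was the highest of all 9, and the other treated values were within the young range or below it. GW8510 over aged vehicle gave a log2 fold change of 0.73 (SE 0.24, edgeR adjusted p = 0.934), which was 0.47 with treated library 3 left out and 0.57 with aged vehicle library 4 left out. Eng overlaps Fpgs on the opposite strand, and reads of the 2 genes cannot be told apart if strand was not used. Among the receptors all 11 log2 fold changes were above 0, from 0.37 (Tek) to 0.73 (Eng), with a median of 0.51, or 0.33 without treated library 3 and 0.35 without aged vehicle library 4. Kdr, Flt1 and Flt4 stood at 0.53, 0.43 and 0.42, and Aplnr at 0.70 with a 95% interval of -0.39 to 1.79. Ramp2 measured 25.1, 34.6 and 23.8 CPM in the aged GW8510 libraries, 15.7, 24.7 and 12.5 CPM in the aged vehicle libraries and 16.4, 18.6 and 16.3 CPM in the young vehicle libraries, with a log2 fold change of 0.66 (SE 0.25, edgeR adjusted p = 0.934). For Ramp2 that value was 0.47 without treated library 3 and 0.46 without aged vehicle library 4.

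Rgcc had the single log2 fold change below 0 among the members with treatment, -0.77 (SE 0.28, edgeR adjusted p = 0.934), and did not pass. The treated values, given above, all lay below the aged vehicle values and above the young values. Without aged vehicle library 4 the log2 fold change was -0.35 (edgeR adjusted p = 1). None of the other enzymes and regulators passed. Nos3 had the largest log2 fold change among them, 0.89 (SE 0.32, edgeR adjusted p = 0.934), with 11.4, 22.9 and 18.8 CPM in the aged GW8510 libraries, 8.90, 12.9 and 6.79 CPM in the aged vehicle libraries and 17.5, 10.5 and 10.8 CPM in the young vehicle libraries. For Nos3 the value was 0.66 without treated library 3 and 0.69 without aged vehicle library 4. Rasip1 stood at 0.60 and Plvap at 0.30. Apold1 had 0.49 with a 95% interval of -1.08 to 2.06, and -0.04 without aged GW8510 library 3.

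The 8 junction and adhesion genes had log2 fold changes of 0.26 (Cldn5) to 0.60 (Gja5), with a median of 0.45, or 0.24 without treated library 3 and 0.31 without aged vehicle library 4. Esam, an adhesion molecule of tight junctions, measured 27.5, 43.9 and 30.7 CPM in the aged GW8510 libraries, 21.9, 29.4 and 23.0 CPM in the aged vehicle libraries and 25.4, 29.2 and 25.5 CPM in the young vehicle libraries. Library 3 of the treated mice stood above all others, and the remaining values overlapped. The log2 fold change of Esam was 0.46, or 0.23 without treated library 3. Cdh5 had 0.42, Pecam1 0.47 and Icam2 0.48. Cldn5 was -0.01 without aged GW8510 library 3. The secreted and matrix genes Mmrn2, Vwf and Egfl7 had 0.64, 0.64 and 0.43.

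**Figure D3:**
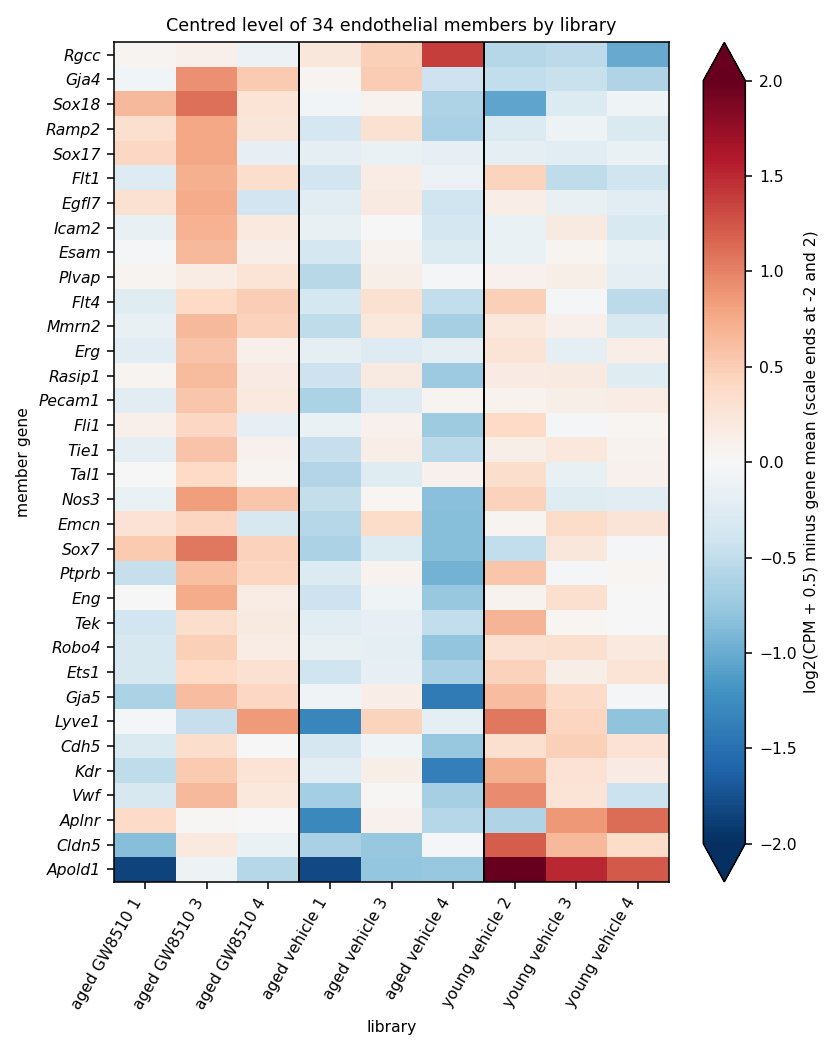
Level of each member in each library, as log2(CPM + 0.5) minus the gene's mean over the 9 libraries (red higher, blue lower), with aged GW8510, aged vehicle and young vehicle libraries from left to right. Aged GW8510 library 3 holds the highest level of 22 members, and aged vehicle library 4 the lowest of 18.

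The treated and young groups were compared directly, with the same libraries of treated and young mice as in the other comparisons. No member passed, against 0.751% of all genes tested. Of the members, 21 were above 0 and 13 below, against 51.3% and 48.7% of all genes, with a median of 0.10, against 0.01 over all genes. The median was -0.09 without aged GW8510 library 3 and 0.28 without aged GW8510 library 1. The libraries did not overlap for 5 higher members (Gja4, Ramp2, Sox7, Sox18 and Rgcc) and 2 lower members (Cldn5 and Apold1), against 12.9% and 12.8% of all genes. At an unadjusted p under 0.05, 6 members were higher and 2 were lower, against 8.51% and 8.17% of all genes. With aged GW8510 library 3 left out 3 were higher, and with young vehicle library 4 left out 4 were. Apold1 had a log2 fold change of -3.17 (SE 0.69, edgeR adjusted p = 0.0675), Sox18 a log2 fold change of 1.15 (SE 0.31, edgeR adjusted p = 0.0998) and Gja4 a log2 fold change of 1.12 (SE 0.31, edgeR adjusted p = 0.112). Cldn5 had a log2 fold change of -1.03 (SE 0.33, edgeR adjusted p = 0.158). Without aged vehicle library 4, Rgcc and Apold1 passed in this comparison (edgeR adjusted p = 0.0411 and 0.0385). In the authors' deposited table the marked members were Apold1 (adjusted p = 0.00577), Cldn5 (0.0171), Gja4 (0.00704) and Sox18 (0.00264), and for age Apold1, Cldn5 and Rgcc. The authors' mark is not an adjusted p under 0.05 alone. Unmarked members under 0.05 in their values were Rgcc (0.00408), Ramp2 (0.0146) and Sox7 (0.0350), and for age Cdh5 (0.0361). The authors' log2 fold changes for these 4 were 0.72, 0.71, 0.81 and -0.73. The 3 comparisons share libraries in pairs, so their values are not independent of each other.

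On the log2 scale relative to the mean of the other 33 members, Rgcc differed by 1.88 between aged vehicle and young vehicle and by -1.20 between aged GW8510 and aged vehicle, both without overlap. Gja4 differed by 1.01 between aged vehicle and young vehicle and by -0.07 between treated and aged vehicle. Apold1 differed by -2.71 and -2.94 from young vehicle in the aged vehicle and the treated groups. Sox7 differed by 0.81 between treated and aged vehicle without overlap. Sox18 differed by 0.40 and Eng by 0.23 between treated and aged vehicle, and both overlapped on this scale, unlike in CPM. Sox18 differed by 1.11 between treated and young. Cldn5 differed by -1.11 between treated and young. These are descriptions, with no test.

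**Figure D4:**
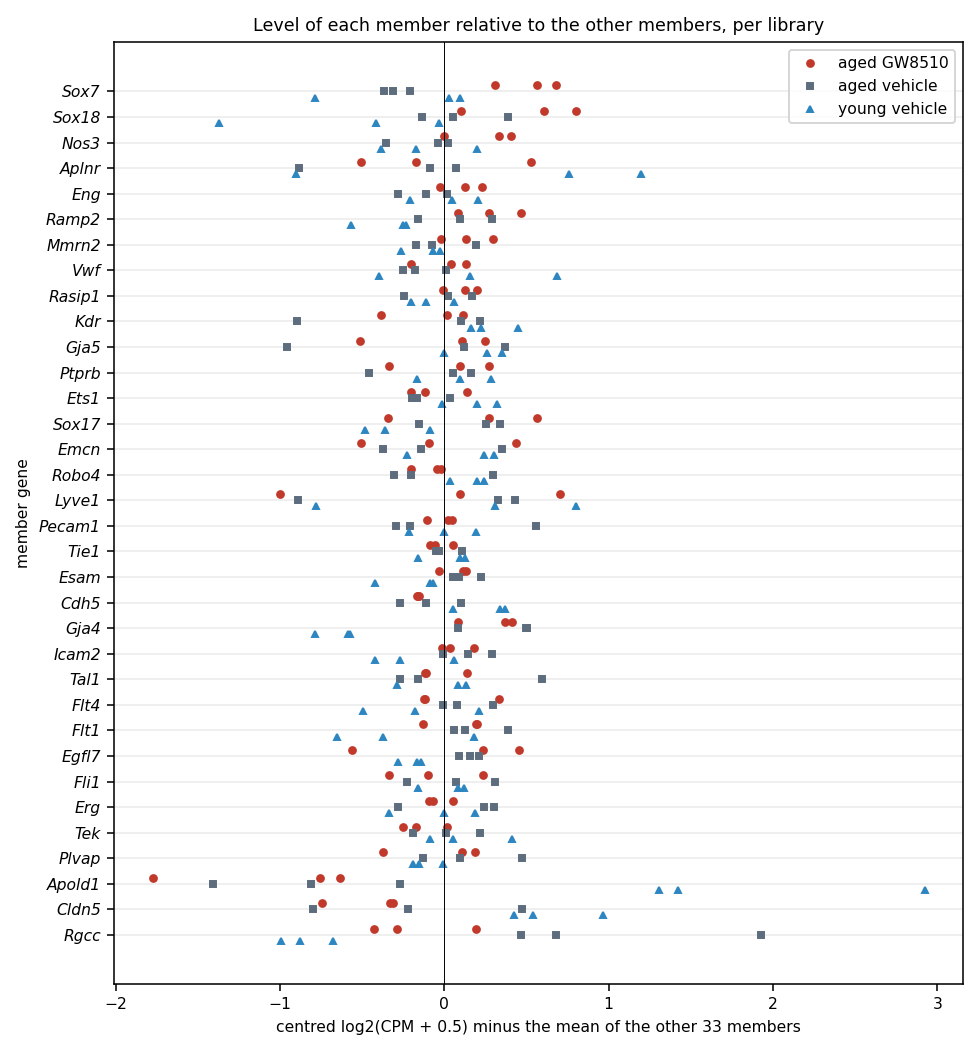
Level of each member relative to the mean of the other 33 members in the same library (log2 scale, centred per gene), with aged GW8510 as red circles, aged vehicle as grey squares and young vehicle as blue triangles, 3 libraries each. Sox7 at the top and Rgcc at the bottom have treated values that do not overlap those of aged vehicle.

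A second list of 30 endothelial genes that are no members, of which 29 were tested, was compared with the members. With age 15 were above 0 and 14 below, with a median log2 fold change of 0.04, against -0.41 for the members, and 3 fell. They were Cd93, a C-type lectin of endothelium, with 22.2 ± 4.22 CPM in aged vehicle muscle, against 62.6 ± 2.80 CPM in young vehicle muscle (SD, n = 3 each, 2.83-fold lower, edgeR adjusted p = 0.0191), Tspan18, a tetraspanin gene (2.50-fold lower, edgeR adjusted p = 0.0422), and Cd34, a sialomucin gene that fibroblasts also express (2.09-fold lower, edgeR adjusted p = 0.0470). With treatment 26 of 29 were above 0 with a median of 0.49, and none passed. Their mean centred level was 0.04 to 0.58 in the aged GW8510 libraries, -0.34 to -0.0023 in aged vehicle muscle and -0.21 to -0.0045 in young vehicle muscle.

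Endothelial ligands, receptors and pathway genes that are no members formed a list of 36, of which 31 were tested. With age 25 were below 0 with a median of -0.38, and 1 fell, Edn1, which encodes the vasoconstrictor endothelin, with 0.847 ± 0.167 CPM in aged vehicle muscle, against 2.27 ± 0.222 CPM in young vehicle muscle (SD, n = 3 each, edgeR adjusted p = 0.0494). With treatment 29 of 31 were above 0 with a median of 0.43 and none passed, Edn1 being at 1.59 ± 0.154 CPM in the treated libraries. Of 7 lymphatic genes tested all were below 0 with age and in treated against young muscle, with medians of -1.59 and -1.08, and none passed. Among the immediate-early genes, Fosb (edgeR adjusted p = 0.0255) and Ier2 (edgeR adjusted p = 0.0288) fell with age beside Klf2, and in treated against young muscle Egr1 (edgeR adjusted p = 0.0475) and Fosl2 (edgeR adjusted p = 0.0225) were lower.

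The members' mean centred level was -0.13, 0.52 and 0.17 in the aged GW8510 libraries, -0.43, 0.02 and -0.49 in the aged vehicle libraries and 0.27, 0.13 and -0.04 in the young vehicle libraries. Markers of cells that share single members, and of other cell types, were set beside it. Of the 12 leukocyte markers 2 were tested. Both were above 0 with age (median 0.77) and below 0 with treatment (median -0.81), and neither passed. Both were highest in aged vehicle library 4. The 12 platelet and erythroid markers, 7 of them tested, summed to 7.76, 609 and 77.8 CPM in the treated, 458, 17.9 and 24.8 CPM in the aged vehicle and 96.9, 54.1 and 113 CPM in the young vehicle libraries, and Gp9 and Treml1 had at most 3 counts in every library. The highest platelet and erythroid sums were in aged GW8510 library 3, where the members were highest, and in aged vehicle library 1, where the members were low. In smooth muscle and pericyte markers 13 of 14 were above 0 with treatment, with a median of 0.51. In the same comparison 7 of 8 adipocyte genes were above 0 with a median of 1.93, 11 of 12 macrophage markers with a median of 0.19 and 10 of 14 fibroblast markers with a median of 0.25, and none passed. The adipocyte mean centred level was 1.93 in aged GW8510 library 4, but -0.51 and -0.85 in libraries 1 and 3, within the aged vehicle range of -0.86 to -0.11. For smooth muscle and pericyte markers aged vehicle library 4 had a mean centred level of -1.17, while libraries 1 and 3 of that group had -0.21 and 0.31. Muscle fibre genes had a mean centred level of -0.44 in that library and -0.11 to 0.23 in the others. The part of these cells in the members' differences was not tested.

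**Figure D5:**
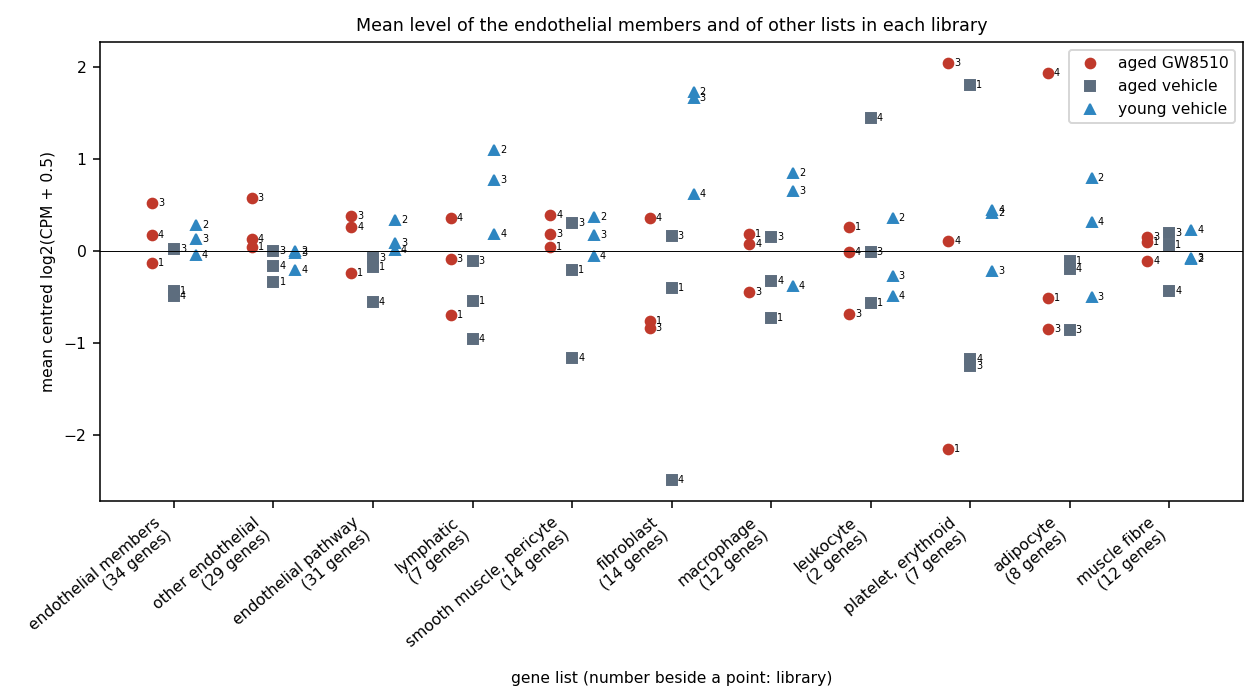
Mean centred level (log2(CPM + 0.5) minus each gene's mean) of the members and 10 other lists in each library, with the library number beside each point. The members lie at -0.13 to 0.52 in aged GW8510, -0.49 to 0.02 in aged vehicle and -0.04 to 0.27 in young vehicle libraries, and the fibroblast mean is -2.50 in aged vehicle library 4.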

How the data were processed

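Gene expression of muscle was measured by RNA sequencing in 9 libraries, 3 per group. The authors deposited 3 tables of 55536 genes, 1 per pair of groups, holding expected counts per gene and library, per the file headers. These counts are not normalized, and 75.8% of the values above 0 are whole numbers. The authors deposited TPM values per library, scaled for gene length and depth, per the file headers. The authors deposited, per the file headers, group means, the ratio (fold) between groups, its log2, and p-values with their adjustment. The submitters' processing notes name GRCm38, CASAVA, HISAT2, StringTie, RSEM, DESeq2 and edgeR. Versions, roles, annotation and strand of counting are not given in the sources used here.

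Expected counts were rounded, genes filtered with filterByExpr and scaled by TMM. One quasi-likelihood fit of edgeR (4.0.16, under R 4.3.3) held all 9 libraries, and its F test was two-sided, with Benjamini-Hochberg adjustment over 14384 genes and a threshold of 0.05. The SE of a log2 fold change is its size over the square root of F, and 95% intervals use that SE. CPM values are TMM-scaled. Centred levels use log2(CPM + 0.5). The common dispersion was 0.0812, and floors of 3 counts cover counting error only. Coordinates come from GENCODE M21 (GRCm38) and promoters from RefSeq (GRCm38.p6). The test script was checked on simulated counts. Alternatives were RLE factors, no filter on low counts, DESeq2 1.42.0, limma-voom (limma 3.58.1), a replicate block, only the 6 libraries compared and leaving out each library.

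The members and lists were chosen with earlier results of these data known, so members have no list-wide test. Members given in full are those past the threshold in any comparison, the 8 smallest p with age, the 4 smallest p with treatment, and those for which both aged groups lay on the same side of young without overlap. Of other lists, up to 3 genes past the threshold are named per comparison.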

Additional observations from a re-analysis of the deposited data

How the results depend on the processing

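The number of members past the threshold with age, 2 (Rgcc and Apold1), was 3 with no filter on low counts (also Cldn5), 4 with DESeq2 (also Cdh5 and Cldn5), 1 with limma-voom, 0 with only the 6 libraries compared, and 0 to 1 without single libraries. For treated against aged vehicle muscle it was 0, with DESeq2 1 (Sox7) and 0 to 0 without single libraries. For treated against young muscle it was 0, with no filter on low counts 2 (Sox18 and Apold1), with DESeq2 3 (Gja4, Sox18 and Apold1), with only the 6 libraries compared 1 (Apold1), and 0 to 2 without single libraries. With the replicate number as a block the age count was 0. The numbers share no stated origin. Same-number correlations of deviations ran from -0.250 to 0.158, and those between different numbers from -0.291 to 0.330. With few same-number pairs and deviations centred within groups of 3, these values cannot decide whether the numbers pair the libraries. The block gave medians of -0.20, 0.48 and 0.36 for age, treated against aged vehicle and treated against young.

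Signs turned for values near 0. Sox18 with age was -0.087 with the block and -0.011 to 0.46 without single libraries. In treated against aged vehicle muscle, without single libraries, Apold1 ran from -0.041 to 0.92 and Cldn5 from -0.0094 to 0.52. In treated against young muscle Eng ran from -0.072 to 0.33, Ets1 from -0.28 to 0.063, Robo4 from -0.35 to 0.046 and Tek from -0.35 to 0.044, and with the block Ets1 was 0.047 and Tek 0.12. The cause was not tested. Over all genes the count called with age, 175, was 699 with no filter, 974 with DESeq2, 5 with the block, 50 with only 6 libraries and 19 to 148 without single libraries. In treated against young muscle the 108 became 553, 870, 8, 469 and 25 to 595. Of the values for the members given in full, 12 passed newly, 19 no longer passed and 10 turned sign. The other checks, 500 with that of the order of member levels, were counted as unchanged. For a member's value this means the same sign and the same side of the threshold, whatever the change in size. Among the checks on numbers of members called and on medians, 18 moved beyond a set margin and 72 did not. All 19 losses were age values of Rgcc and Apold1, the only members past the threshold in the main fit. Rgcc kept its call in 3 of 9 fits without a library and in 4 of 6 other alternatives. Apold1 kept its call in 1 of 9 and in 3 of 6. At 3 libraries per group the spread between libraries limits what can be called.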

Other observations

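Among the adipocyte genes, none passed in treated against aged vehicle muscle, and 1 of 8 passed in treated against young muscle. Pparg, a regulator of fat cell differentiation, had 7.68 ± 2.97 CPM in aged GW8510 muscle, against 2.28 ± 0.437 CPM in young vehicle muscle (SD, n = 3 each, 3.36-fold, edgeR adjusted p = 0.0355), and its mean in aged vehicle muscle was 3.95 ± 0.626 CPM (SD, n = 3). The mean centred level of the 8 genes was 1.93 in aged GW8510 library 4 and -0.51 and -0.85 in libraries 1 and 3 of that group, -0.86 to -0.11 in aged vehicle muscle and -0.50 to 0.79 in young vehicle muscle.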
